A study of Mus musculus with 18 samples.

Results

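Transcripts of 10 receptor tyrosine kinase genes were followed in mouse fibroblasts under heat stress (HS) or tunicamycin. The genes were chosen by name, as growth factor, insulin, GAS6 and collagen receptors of the fibroblast surface: Pdgfra, Pdgfrb, Egfr, Fgfr1, Fgfr2, Igf1r, Insr, Met, Axl and Ddr2. They are 10 of the 20207 genes listed for each library, and all 10 passed the filter for testing (1 read or more in each library), as did 12731 genes in all. The cells were NIH3T3, an established mouse fibroblast line, carrying a stably integrated fusion of an FKBP-derived destabilizing domain (DD) and superfolder GFP. They had been sorted for high GFP after integration. The ligand that keeps the DD folded, Shield-1, stayed in the medium of every group described here, the controls included, so unfolded DD was not part of any comparison. The 18 mRNA-seq libraries fall into 6 groups of 3: control cells without stress at 0 min, HS for 45 or 135 min, and tunicamycin (Tu) for 45, 135 or 405 min. Tunicamycin blocks the first step of N-linked glycosylation in the endoplasmic reticulum (ER).

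A receptor tyrosine kinase spans the plasma membrane once or, in the insulin receptor family, as a disulphide-linked complex. Ligand binding brings receptor chains together, the kinase domains phosphorylate one another, and docking proteins then pass the signal to the RAS-MAP kinase and PI3 kinase pathways. Their extracellular parts fold and receive N-linked glycans in the ER before they reach the cell surface, so these proteins are clients of the compartment that tunicamycin perturbs. In fibroblasts the PDGF receptors are the classical mitogen receptors, the FGF, EGF and IGF1 receptors carry further growth and survival signals, and DDR2 binds fibrillar collagen. The measurements below are of mRNA, and receptor protein was not measured.

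Depth was between 33415592 and 66478268 reads counted on genes per library, so 3 reads corresponded to 0.0451 to 0.0898 CPM (counts scaled to library size). All receptor genes lay far above this floor. CPM values are scaled by the TMM method over the 18 libraries and compare 1 gene between samples, while RPKM, which divides by gene length, compares genes with each other. The 8 fibroblast markers examined were present, with Vim between 1637 and 3689 RPKM and Col1a1 between 649 and 4096 RPKM over the 18 libraries. Epithelial, endothelial, blood and muscle markers were at or near 0 (Epcam at 0 in 15 libraries, Ptprc at 0 in 11, Myod1 at 0 in 17). Cd68 (3.72 to 7.61 RPKM) and Tubb3 (2.06 to 11.7 RPKM), which stand on the macrophage and nerve lists, were above that level. Hsph1, a cytosolic chaperone gene of the heat shock response, averaged 202 ± 38.8 CPM in the control and 2028 ± 742 CPM after HS for 135 min (SD, n = 3). Hspa5, which encodes the ER chaperone BiP, averaged 692 ± 40.4 CPM in the control, 1341 ± 73.8 CPM after HS for 135 min, 935 ± 17.2 CPM after Tu for 45 min, 415 ± 79.1 CPM after Tu for 135 min and 9011 ± 252 CPM after Tu for 405 min (SD, n = 3). These checks follow the labels at HS 135 min and Tu 405 min, while Hspa5 at Tu 135 min lay below the control. HS 45 replicate 3, control replicate 1 and Tu 135 replicate 1 stood apart from their groups in several receptors. Receptor calls that changed without 1 of them are given both ways.

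The sequences just upstream of the transcription start are shown for 3 genes that span the behaviours described below: Pdgfra and Met, which fell most steeply with Pdgfrb at Tu 405 min, and Ddr2, whose samples then stood above the controls. A RefSeq promoter (build GRCm38.p6) was matched for 7 of the 10 genes (Pdgfra, Egfr, Fgfr2, Igf1r, Met, Axl and Ddr2), and the 250 bases before the start are printed 5′ to 3′ on the strand of the gene. The capitals mark the motifs that were found among 6 searched on both strands. In Pdgfra (chr5:75152001-75152250, plus strand) they mark the cAMP response core TGACG, read here on the opposite strand. In Met (chr6:17463707-17463956, plus strand) they mark 3 GC boxes, GGGCGG. In Ddr2 (chr1:170088945-170089194, minus strand) they mark the letters of the TATA box motif, TATAAA, on the opposite strand. This Ddr2 match lies nearer the far end of the stretch than the transcription start. Motifs were matched by their letters at any position, and whether any of them acts in these promoters was not tested.
Pdgfra: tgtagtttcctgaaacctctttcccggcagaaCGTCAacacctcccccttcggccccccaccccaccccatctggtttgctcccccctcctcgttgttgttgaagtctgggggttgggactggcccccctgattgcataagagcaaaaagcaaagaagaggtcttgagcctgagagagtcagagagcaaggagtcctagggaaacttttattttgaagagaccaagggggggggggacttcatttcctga
Met: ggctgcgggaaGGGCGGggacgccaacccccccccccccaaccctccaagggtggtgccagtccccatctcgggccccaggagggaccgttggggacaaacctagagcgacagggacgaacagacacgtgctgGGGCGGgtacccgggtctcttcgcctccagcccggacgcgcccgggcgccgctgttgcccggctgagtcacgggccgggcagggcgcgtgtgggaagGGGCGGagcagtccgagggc
Ddr2: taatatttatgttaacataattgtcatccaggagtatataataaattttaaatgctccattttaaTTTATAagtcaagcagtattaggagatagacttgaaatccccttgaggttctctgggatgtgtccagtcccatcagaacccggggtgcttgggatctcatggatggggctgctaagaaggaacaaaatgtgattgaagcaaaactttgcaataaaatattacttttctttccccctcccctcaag
The 3 stretches differ in composition. The Met stretch was 74.0% GC with 24 CpG dinucleotides, the Pdgfra stretch 54.4% GC with 4, and the Ddr2 stretch 37.6% GC with 1, beside medians of 52.4% and 6 over 32851 mouse promoters of the same length. GC boxes were found in 4 of the 7 receptor promoters (Axl, Egfr, Igf1r and Met) and in 32.7% of all promoters. TGACG was found in 1 of the 7 (17.8% of all promoters) and TATAAA in 1 of the 7 (12.4%). The heat shock element pair GAANNTTC (6.69% of all promoters), the C/EBP-ATF element TGATGNAA (3.45%) and CCAAT (33.8%) were found in 0 of the 7 windows. The steeply falling Pdgfra and Met therefore shared none of the 6 motifs in these windows.

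The receptors also share features of their coding sequence. The N-linked glycan acceptor pattern is asparagine followed by any residue but proline and then serine or threonine. It occurred 7 (Axl) to 19 (Insr) times in the longest coding sequence of each gene. Counts cover the whole coding sequence and not only the extracellular part, so they are not counts of glycan sites. The median over the receptors was 12.5 patterns per gene, or 1.13 per 100 codons, beside 2 patterns per gene and 0.402 per 100 codons over 11987 tested genes with a coding sequence. Insr had the densest set of patterns (1.38 per 100 codons) and Axl the sparsest (0.788 per 100 codons).

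In unstressed cells the receptor mRNAs spanned a wide range of levels per length. Axl, the receptor for GAS6, was highest at 321 ± 66.8 RPKM (SD, n = 3, as for the values that follow), and Fgfr1 was next at 85.0 ± 20.2 RPKM. The PDGF receptors followed at 50.7 ± 13.7 RPKM for Pdgfrb and 41.4 ± 1.94 RPKM for Pdgfra, and the samples of these neighbours overlapped. Ddr2, the collagen receptor, stood at 34.7 ± 0.844 RPKM and Met, the receptor for hepatocyte growth factor, at 19.96 ± 2.48 RPKM. Igf1r was at 10.4 ± 2.32 RPKM and Fgfr2 at 7.79 ± 0.0904 RPKM. At the bottom, Egfr at 3.92 ± 1.17 RPKM and Insr at 2.87 ± 0.542 RPKM overlapped. All other neighbours in this order were separated in every sample.

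**Figure D1:**
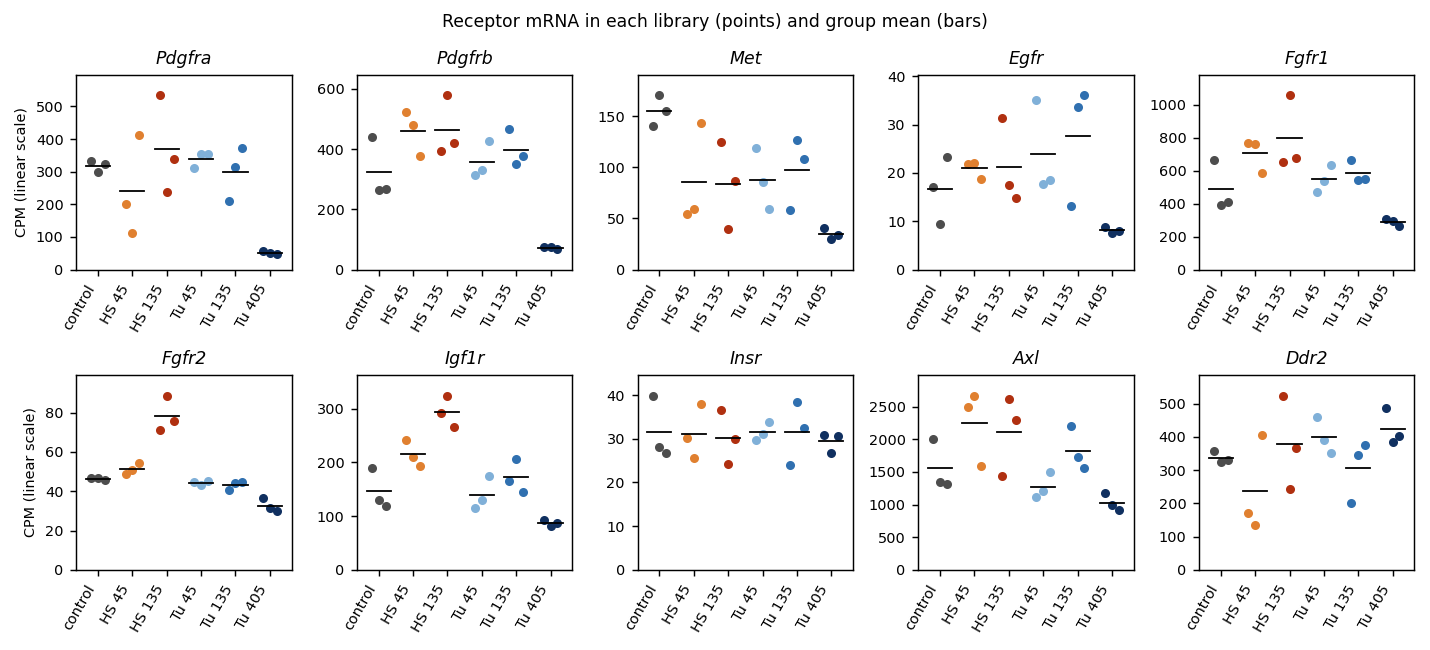
Normalised expression (CPM, linear axes starting at 0) of each receptor gene in the 18 libraries, grouped on the horizontal axis as control, HS 45 and 135 min and Tu 45, 135 and 405 min. Points are libraries (replicates 1 to 3 from left to right) and bars are group means. At Tu 405 min the Pdgfra and Pdgfrb points lie below every other library. The Met points lie below every control but overlap with HS 135 min (40.6 CPM in Tu 405 replicate 1, 40.0 CPM in HS 135 replicate 2). Those of Ddr2 lie above every control.

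The late tunicamycin time was compared with the control to ask how receptor transcripts stood once the ER stress response was established. The only controls were those at 0 min. In every comparison with the control, stress and the time elapsed therefore cannot be told apart. At Tu 405 min 8 of the 10 receptor mRNAs were lower than in the control at an adjusted p under 0.05 in edgeR's quasi-likelihood test, where 23.5% of all tested genes were lower, and none was higher (23.3% of all genes were). The same genes, and no other receptor, had all 3 Tu samples below all 3 controls, a pattern that 29.5% of all genes showed. The median log2 fold change was -0.74 over the receptors and -0.01 over all tested genes. In bulk RNA, fewer cells expressing a gene and less of its mRNA per cell cannot be told apart. Nothing in the labels says whether the replicates were separate cultures, so p-values measure the spread between these samples, which may be technical.

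The PDGF receptors fell furthest. Pdgfra, the receptor for PDGF-AA and other PDGF dimers, lies on the mouse build mm9 at chr5:75548316-75594229. It read 332, 298 and 322 CPM in the 3 controls and 57.4, 49.2 and 47.2 CPM in the 3 Tu 405 samples. The groups were far apart and both were tight. This was a 6.10-fold fall (log2 fold change -2.61, SE 0.13, adjusted p = 1.11e-05, edgeR). Pdgfrb, which binds PDGF-BB, gave 439, 262 and 269 CPM in the controls and 74.2, 73.8 and 68.5 CPM at Tu 405 min. Control replicate 1 stood above the other controls, yet even the lowest control was well above every Tu sample. The fall was 4.42-fold (log2 fold change -2.15, SE 0.22, adjusted p = 0.000174, edgeR), and without control replicate 1 it was -1.85 on the log2 scale.

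Met, at chr6:17413957-17523980 (mm9), showed a fall of the same size as Pdgfrb. Its controls were 140, 170 and 155 CPM, and the Tu 405 samples 40.6, 29.9 and 33.5 CPM. No sample of either group came near the other group. The fold change was 4.41-fold downward (log2 fold change -2.14, SE 0.15, adjusted p = 3.71e-05, edgeR). Pdgfra, Pdgfrb and Met kept their calls in all 9 alternative analyses of this comparison and whichever library was left out.

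Fgfr1, Igf1r, Axl and Fgfr2 fell by smaller amounts. Fgfr1, a receptor for FGF1 and FGF2, had controls of 662, 391 and 407 CPM against 305, 296 and 261 CPM (log2 fold change -0.74, SE 0.21, adjusted p = 0.0220, edgeR). Igf1r, the IGF1 receptor, had controls of 190, 131 and 119 CPM against 92.2, 82.2 and 87.2 CPM (log2 fold change -0.73, SE 0.19, adjusted p = 0.0133, edgeR). Axl had controls of 2001, 1351 and 1320 CPM against 1170, 991 and 910 CPM (log2 fold change -0.59, SE 0.20, adjusted p = 0.0413, edgeR). In these 3 genes control replicate 1 stood well above the other controls, and without it the falls were -0.45, -0.49 and -0.36 on the log2 scale, with adjusted p of 0.00285, 0.00143 and 0.0247 in edgeR. Fgfr2, the other FGF receptor, had the tightest controls of all the receptors, 46.8, 46.6 and 45.7 CPM, against 36.6, 31.2 and 30.1 CPM (log2 fold change -0.48, SE 0.12, adjusted p = 0.0129, edgeR). All 4 calls depended on single Tu libraries. Without Tu 405 replicate 2 none of them was called (edgeR adjusted p of 0.0676 for Fgfr1, 0.0592 for Igf1r, 0.132 for Axl and 0.0668 for Fgfr2), without Tu 405 replicate 3 only Igf1r kept its call (0.0837 for Fgfr1, 0.143 for Axl and 0.0720 for Fgfr2), and without Tu 405 replicate 1 the adjusted p of Fgfr1 was 0.0535. The number of receptors called was then 3, 4 and 6, with 31.9%, 32.7% and 41.3% of all genes called. The Axl call was also lost in a fit of all 6 groups with 1 shared spread (adjusted p = 0.0853).

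Egfr, the EGF receptor, gave 17.2, 9.52 and 23.3 CPM in the controls and 8.81, 7.48 and 8.03 CPM at Tu 405 min. The lowest control lay just above the highest Tu sample. The log2 fold change was -1.02 (SE 0.29, adjusted p = 0.0212, edgeR). The size of this fall depended on the gene model behind the counts. The Egfr entry had a length, implied by its count and RPKM, of 3202 to 3322 bases in 13 libraries and of 7172 to 7651 bases in 5 libraries, among them control replicate 3. On the longer model the counts were 23.3 to 36.1 CPM, and on the shorter 7.48 to 22.0 CPM, whereas RPKM overlapped (3.43 to 5.54 and 2.24 to 6.18). Restricted to libraries on the shorter model, the comparison of 3 Tu with 2 control samples gave a log2 fold change of -0.72 (adjusted p = 0.0601, edgeR), which did not pass the threshold. The call was also lost without any 1 of the 3 Tu libraries (adjusted p of 0.0590, 0.0781 and 0.0663, edgeR) and in the shared fit (0.0607). Such a change of length by over 1.5 times was seen in 101 of the 9866 genes that had 50 reads or more throughout, and in no other receptor.

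**Figure D2:**
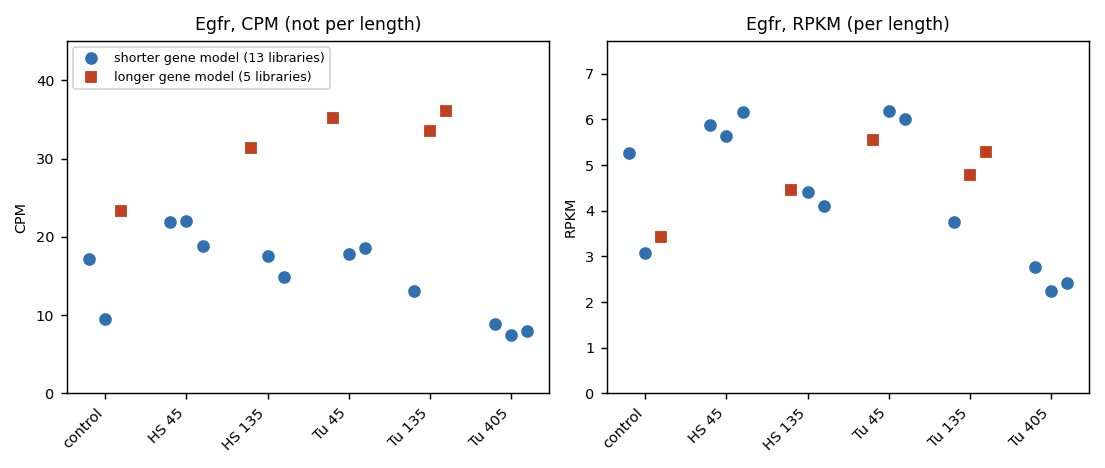
Egfr in each library as CPM (left) and as RPKM (right), by group, with the 13 libraries on the shorter gene model as circles and the 5 on the longer as squares. Squares lie above circles in CPM (23.3 to 36.1 against 7.48 to 22.0) and among them in RPKM.

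Ddr2 and Insr were not called lower. Ddr2, at chr1:171902438-172019075 (mm9), gave 356, 323 and 331 CPM in the controls and 486, 386 and 403 CPM at Tu 405 min. Every Tu sample was above every control, by 1.28-fold on average, and 29.2% of all genes were separated in that direction. The test did not reach the threshold (log2 fold change 0.36, SE 0.13, adjusted p = 0.0585, edgeR). It passed in the DESeq2 Wald test (adjusted p = 0.0429), with an offset for transcript GC content (0.0414 in edgeR) and without control replicate 1 (0.0118 in edgeR). Insr, the insulin receptor, gave 39.9, 28.2 and 26.7 CPM in the controls and 31.0, 26.7 and 30.6 CPM at Tu 405 min. The groups lay over one another (log2 fold change -0.08, SE 0.18, adjusted p = 0.729, edgeR).

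The order of levels per length therefore differed at Tu 405 min. Axl (203 ± 32.2 RPKM) and Fgfr1 (49.5 ± 4.93 RPKM) still led (SD, n = 3). Ddr2 came next at 41.9 ± 6.53 RPKM and overlapped with Fgfr1, while Pdgfrb stood at 10.9 ± 0.690 RPKM and Pdgfra at 6.38 ± 0.859 RPKM. Pdgfra, Igf1r (5.94 ± 0.506 RPKM), Fgfr2 (5.13 ± 0.704 RPKM) and Met (4.26 ± 0.797 RPKM) each overlapped with the next, and so did Insr (2.57 ± 0.259 RPKM) and Egfr (2.47 ± 0.275 RPKM). The summed RPKM of the 8 fibroblast markers was 4856 to 5373 at Tu 405 min and 9422 to 9786 in the control, and the summed nerve and glia list, made up almost wholly of Tubb3, was 11.2 to 11.7 against 2.63 to 3.40. Their part in the receptor changes was not tested.

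**Figure D3:**
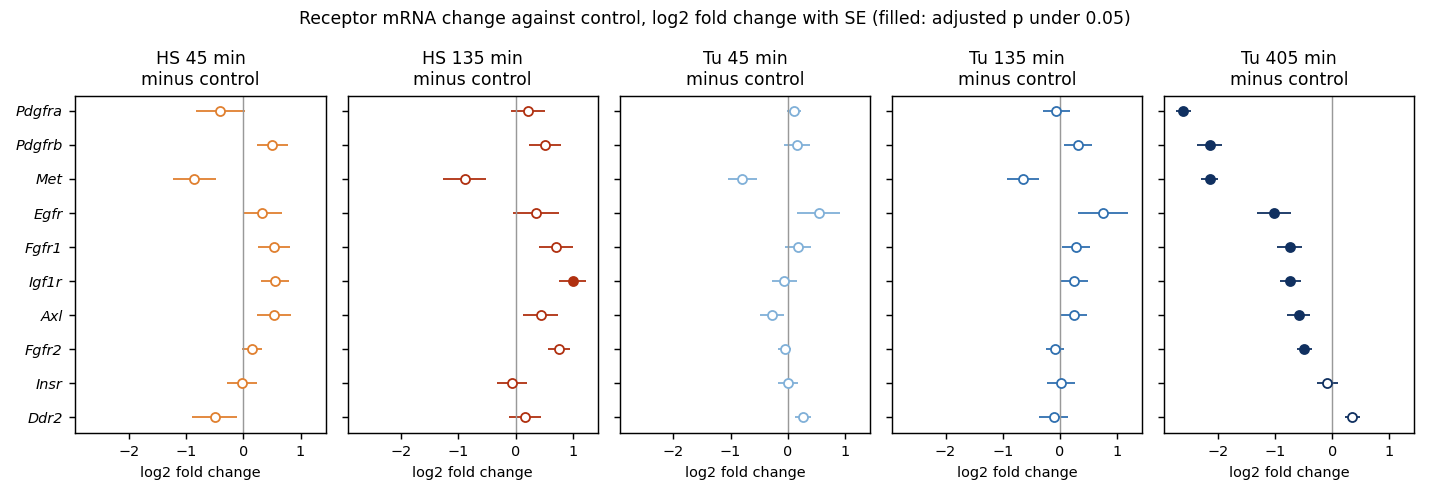
Log2 fold change of the 10 receptor mRNAs in each stress group minus the control, with bars of 1 SE from the edgeR fit. Filled points have an adjusted p under 0.05, which held for 8 receptors at Tu 405 min, for Igf1r at HS 135 min and for no receptor in the other panels.

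At the earlier tunicamycin times no receptor passed the threshold. At Tu 45 min edgeR called 0 of 10, beside 4.01% of all genes higher and 2.17% lower, with 1 receptor at an unadjusted p under 0.05. That receptor was Met, with 119, 85.9 and 58.9 CPM against 140 to 170 CPM in the control. All 3 samples were below the controls but spread widely (log2 fold change -0.80, SE 0.25, adjusted p = 0.0999, edgeR). Met was called lower at Tu 45 min by the DESeq2 Wald test (adjusted p = 0.0252), which called no other receptor but 14.5% of all genes. It was also called lower in edgeR with the GC offset (adjusted p = 0.0271), where 15.4% of all genes were called. Met and Fgfr2 were the receptors whose Tu 45 samples all lay below the controls (16.0% of all genes did), although Fgfr2 differed by only -0.05 on the log2 scale. The other 8 receptors overlapped with the control at Tu 45 min.

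At Tu 135 min edgeR again called 0 of 10 receptors, with 0 at an unadjusted p under 0.05, and the DESeq2 Wald test called 0. Calls were scarce in this comparison (0.126% of all genes higher and 0.00785% lower). Met gave 58.2, 126 and 108 CPM, all below the controls (log2 fold change -0.64, SE 0.29, adjusted p = 0.273, edgeR). Pdgfra, with 209, 315 and 373 CPM, and Pdgfrb, with 468, 350 and 376 CPM, overlapped with their controls. Met and Fgfr2 were again the receptors separated downward, with 13.6% of all genes. Egfr averaged 27.6 ± 12.6 CPM (SD, n = 3; log2 fold change 0.75, adjusted p = 0.395, edgeR), with 2 of 3 libraries on the longer gene model, and the single Tu 135 library on the shorter model differed from the 2 control libraries on it by -0.02 on the log2 scale (SE 0.52).

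The Tu 405 and Tu 135 min samples were also compared directly. Here 8 receptors were lower at 405 min in edgeR (22.4% of all genes were lower) and 0 were higher (21.4% were). The falls on the log2 scale were Pdgfra by -2.57, Pdgfrb by -2.49, Egfr by -1.79, Met by -1.52, Fgfr1 by -1.05, Igf1r by -1.002, Axl by -0.86 and Fgfr2 by -0.42. The adjusted p ran from 4.96e-05 (Pdgfrb) to 0.0362 (Fgfr2) in edgeR. All 8 had the 3 late samples below the 3 earlier ones, as did 26.9% of all genes. This comparison shares the Tu 405 libraries with that against the control. On the shorter model the Egfr value was -0.74, which sets 3 Tu 405 libraries against a single Tu 135 library and is given without a test. Fgfr2 lost its call without Tu 135 replicate 2 or 3 or Tu 405 replicate 2 or 3 (adjusted p of 0.0969, 0.100, 0.146 and 0.150, edgeR), and with the replicate number as a block (0.124). Ddr2, with the 3 late samples above the 3 earlier ones as in 29.8% of all genes, was 1.36-fold higher at 405 min without passing the test (adjusted p = 0.165, edgeR), and Insr differed by -0.12 on the log2 scale (0.620).

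Heat stress was compared with the control as a stress of another kind, one that acts on the whole cell. After HS for 135 min a single receptor, Igf1r, was higher at an adjusted p under 0.05 (4.75% of all genes were higher), and none was lower (2.64%). Igf1r gave 291, 324 and 266 CPM against 190, 131 and 119 CPM in the control. All HS samples lay above all controls, for a 2.004-fold rise (log2 fold change 1.003, SE 0.24, adjusted p = 0.0449, edgeR). The call was lost without control replicate 2 (adjusted p = 0.196), control replicate 3 (0.201) or HS 135 replicate 3 (0.164), with the replicate number as a block (0.153, with 0 of 12731 genes called and 2668 at an unadjusted p under 0.05) and with total counts in place of TMM (log2 fold change 0.84, adjusted p = 0.0550), all in edgeR. The direction held under each of these. Without control replicate 1, the highest control, the log2 fold change was 1.24 (adjusted p = 0.0376, edgeR).

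Fgfr2 was close behind. It gave 71.2, 88.6 and 75.8 CPM after HS for 135 min against 45.7 to 46.8 CPM in the control. The separation was complete and large for controls this tight (log2 fold change 0.76, SE 0.19, adjusted p = 0.0501, edgeR). Fgfr2 passed the threshold in the DESeq2 Wald test (adjusted p = 0.0130), with the GC offset (0.0166 in edgeR), in the shared fit (0.000574 in edgeR) and without HS 135 replicate 1 (0.0279 in edgeR). It moved further from the threshold with the replicate block (0.177) and without control replicate 2 (0.207), control replicate 3 (0.215) or HS 135 replicate 3 (0.198), all in edgeR. Igf1r and Fgfr2 were the receptors with all HS 135 samples above the controls (18.1% of all genes).

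Met was the receptor with all HS 135 samples below the controls (19.0% of all genes), at 124, 40.0 and 86.7 CPM against 140 to 170 CPM. Its samples differed by 3.11-fold among themselves (log2 fold change -0.89, SE 0.37, adjusted p = 0.160, edgeR), and without HS 135 replicate 1 it was called (log2 fold change -1.29, adjusted p = 0.0438, edgeR). Fgfr1 averaged 796 ± 226 CPM against 487 ± 152 CPM (SD, n = 3; log2 fold change 0.71, adjusted p = 0.164, edgeR) and passed in the shared fit (0.0334, edgeR). The other receptors had adjusted p of 0.245 to 0.892 in edgeR, with samples that overlapped with the controls.

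After HS for 45 min edgeR called 0 of the 12731 genes (2480 at an unadjusted p under 0.05), and 0 of 10 receptors had an unadjusted p under 0.05. The DESeq2 Wald test called 451 genes and the shared fit of all 6 groups 1345, none of them a receptor. Pdgfra gave 200, 111 and 411 CPM against 298 to 332 CPM in the control, Ddr2 172, 136 and 404 CPM against 323 to 356 CPM, and Met 54.3, 59.5 and 143 CPM against 140 to 170 CPM. In each of the 3 genes replicates 1 and 2 lay below the controls and replicate 3 reached or passed them. Without HS 45 replicate 3, edgeR called 5786 of all 12731 genes (45.4%) and 4 receptors: Met (log2 fold change -1.45, adjusted p = 0.00158), Ddr2 (-1.13, 0.00362) and Pdgfra (-1.03, 0.0185) lower, and Axl (0.73, 0.0418) higher. Igf1r (242, 211 and 194 CPM) and Fgfr2 (48.8, 50.9 and 54.6 CPM) were the receptors with all HS 45 samples above the controls, a pattern that 12.5% of all genes showed.

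In 3 of the 6 groups the receptors with transcripts low in GC varied more between libraries than the others. Pdgfra, Egfr, Insr, Met and Ddr2 have transcripts of under 49% GC (44.4% to 47.7%), and Pdgfrb, Fgfr1, Fgfr2, Igf1r and Axl of over 49% (50.2% to 55.3%). Within HS 45 min the highest sample exceeded the lowest by a median of 2.63-fold in the first set and 1.32-fold in the second. After HS for 135 min these medians were 2.16 and 1.47, and at Tu 135 min 1.87 and 1.34. The Egfr ratios in the control, HS 135, Tu 45 and Tu 135 min groups (2.45, 2.11, 1.98 and 2.74) include the change of gene model. In HS 45 replicate 3 the first set stood 1.04 above its group's median on the log2 scale while the second set stood at -0.36. Tu 135 replicate 1 stood at -0.78 for the first set and 0.28 for the second. HS 135 replicates 1 and 2 stood at 0.52 and -0.50 for the first set. At Tu 45 min the medians were close (1.30 and 1.34). The spread was small in both sets at Tu 405 min (1.22 and 1.17) and larger in the second set in the control (1.22 and 1.60), where control replicate 1 stood at 0.57 for the second set. With an offset for GC content the Tu 405 min values were -2.53 for Pdgfra, -2.19 for Pdgfrb and -2.04 for Met on the log2 scale, and all 8 calls remained.

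**Figure D4:**
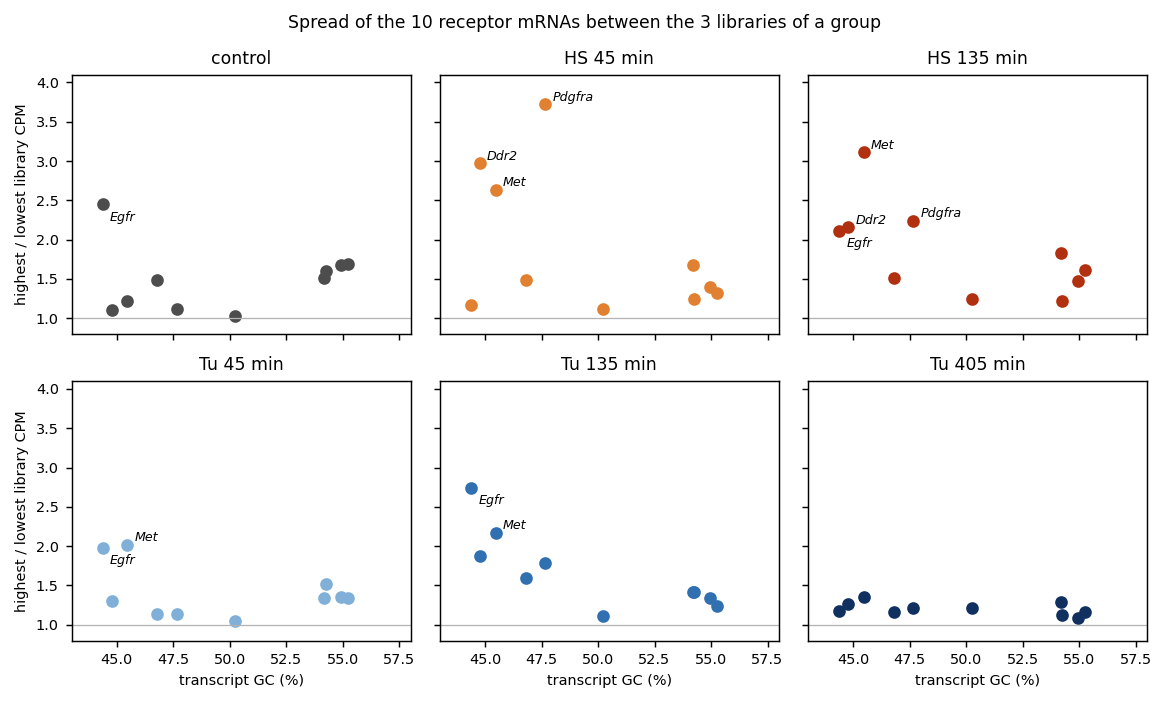
Ratio of the highest to the lowest of the 3 libraries of a group (vertical axis, CPM ratio) against the GC content of the transcript (horizontal axis, %), 1 panel per group and 1 point per receptor; receptors above 1.9 are named. Pdgfra, Ddr2 and Met stand apart at HS 45 min, with ratios up to 3.72, and all receptors are below 1.4 at Tu 405 min.

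HS and Tu at 135 min were set against each other directly, as both times were sampled. No receptor was called in edgeR (1.3% of all genes higher and 0.817% lower under HS), with 2 at an unadjusted p under 0.05. These were Fgfr2 (78.5 ± 9.04 against 43.2 ± 2.35 CPM, SD, n = 3; log2 fold change 0.84, adjusted p = 0.0643, edgeR) and Igf1r (294 ± 29.0 against 172 ± 31.2 CPM, SD, n = 3; log2 fold change 0.74, adjusted p = 0.102, edgeR). Both had every HS sample above every Tu sample, as did 13.4% of all genes. The DESeq2 Wald test and the shared fit each called 2 receptors, with 9.87% and 13.9% of all genes called.

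Ligands of the 10 receptors were among the pathway genes examined. Of 23 ligand genes 22 were tested, and at Tu 405 min 3 were higher and 10 lower in edgeR (23.3% and 23.5% of all tested genes were), with a median log2 fold change of -0.69. Fgf2, a ligand of FGF receptors, fell from 2.07 ± 0.447 to 0.341 ± 0.0949 CPM, Ereg, an EGF family ligand, from 10.5 ± 1.01 to 2.87 ± 0.267 CPM, and Igf2 from 71.8 ± 19.0 to 23.7 ± 2.04 CPM (SD, n = 3). Those higher were Egf (log2 fold change 1.05), Hgf, the MET ligand (0.54), and Pdgfc, a PDGFRA ligand (0.49). At HS 135 min (4.75% of all genes higher and 2.64% lower) 2 ligands were higher, Igf1 (1.005 ± 0.181 to 4.39 ± 1.497 CPM; log2 fold change 2.12, SE 0.34, adjusted p = 0.0199, edgeR) and the collagen gene Col3a1 (798 ± 105 to 2761 ± 892 CPM), and 2 were lower, Ereg (log2 fold change -1.14) and Areg (-2.04), another EGF family ligand, which is named outside the naming rule after its value was seen. Igf2 was already lower at Tu 45 min (25.8 ± 0.808 CPM, log2 fold change -1.46, adjusted p = 0.00958, edgeR), the only ligand called then, and 0 of 22 were called at Tu 135 min or HS 45 min.

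Docking and relay proteins carry the signal from the phosphorylated receptor. All 17 of their genes were tested, and at Tu 405 min 9 were lower and 0 higher, beside 23.5% and 23.3% of all tested genes (median log2 fold change -0.46). Irs1, the docking protein of the IGF1 and insulin receptors, fell from 49.8 ± 25.2 to 7.11 ± 0.953 CPM (SD, n = 3; log2 fold change -2.79, SE 0.34, adjusted p = 0.000409, edgeR). Pik3r1, a regulatory subunit of PI3 kinase, fell from 70.2 ± 5.39 to 27.6 ± 4.96 CPM, and Ptpn11, the phosphatase SHP2, from 270 ± 6.96 to 140 ± 20.7 CPM (SD, n = 3). After HS for 135 min, when 4.75% of all genes were higher, 2 were, Gab1, a docking protein (log2 fold change 1.08), and Pik3r1 (0.83), and at Tu 45 min Gab2 was (0.68).

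Feedback inhibitors and ubiquitin ligases that limit receptor signalling formed a list of 19, all tested. At Tu 405 min 9 were lower and 3 higher, beside 23.5% and 23.3% of all tested genes (median log2 fold change -0.53). Socs2, a suppressor of cytokine and growth hormone signalling, rose from 0.348 ± 0.0849 to 4.35 ± 0.205 CPM (SD, n = 3; log2 fold change 3.63, SE 0.23, adjusted p = 2.17e-05, edgeR). Cblb, a ubiquitin ligase for activated tyrosine kinases, rose from 12.1 ± 1.47 to 25.8 ± 2.26 CPM (SD, n = 3). Hgs, which sorts ubiquitylated receptors at endosomes, rose from 148 ± 35.002 to 207 ± 6.21 CPM (SD, n = 3). Lrig1 (log2 fold change -1.84), Spry4 (-1.49) and Errfi1 (-1.27), inhibitors of receptor signalling, fell. Cblb was also called higher at HS 135 min (log2 fold change 1.34), Tu 45 min (1.24) and Tu 135 min (1.35, adjusted p = 0.0457, edgeR), although with the replicate number as a block 0 genes were called at Tu 135 min (3403 at an unadjusted p under 0.05, edgeR). Socs2 was called higher at HS 135 min (log2 fold change 1.57) and Tu 45 min (2.72), Socs3 at HS 135 min (1.39), and Dusp6, a phosphatase that inactivates ERK, was lower at Tu 45 min (-0.99).

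Of 48 other receptor tyrosine kinase genes 27 were tested, and at Tu 405 min 12 were lower and 1 higher, beside 23.5% and 23.3% of all tested genes (median log2 fold change -0.52). The higher gene was Tek (log2 fold change 1.30), named after its value was seen because few reads were counted on it. Ror1 fell from 4.91 ± 0.186 to 1.13 ± 0.0309 CPM, Flt1, a VEGF receptor, from 19.6 ± 1.26 to 5.41 ± 0.727 CPM, and Ephb2, an ephrin receptor, from 81.0 ± 17.7 to 31.6 ± 1.53 CPM (SD, n = 3). Higher after HS for 135 min were Ephb3, another ephrin receptor (105 ± 24.7 to 304 ± 112 CPM, SD, n = 3), and Lmtk3 (log2 fold change 2.27), named for the same reason as Tek. None was called at Tu 45 min, Tu 135 min or HS 45 min.

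Patterns over the 6 group means were compared among 10919 genes as a description, with groups that share a control and differ in depth. Among the receptors themselves, Pearson r of mean log2 CPM over the 6 groups was highest for Fgfr1 and Igf1r (0.956). It was lowest for Axl and Ddr2 (-0.781). Pdgfra and Pdgfrb gave 0.925, below Pdgfrb and Fgfr1 (0.947), Fgfr2 and Igf1r (0.943) and Pdgfrb and Egfr (0.938). The genes most like Pdgfra were Col12a1 (r = 0.997), Gria1 (0.994) and Acss2 (0.991), those most like Met were Trim37 (0.995), Arhgap18 (0.989) and Mcm7 (0.988), and those most like Ddr2 were Zkscan3 (0.982), Parp8 (0.977) and Lsg1 (0.972). With 6 points, values this high were found for every receptor.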

How the data were processed

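The authors sequenced poly(A) RNA of NIH3T3 cells on an Illumina HiSeq, and used the DNAnexus platform for alignment to mm9 and for counting on RefSeq genes; aligner, counter and versions are not given in the sources used here. For library preparation the paper describes a modified Illumina protocol and, in addition, a NuGEN kit. Neither the labels nor the methods say which libraries used which. The deposited estimated count per gene is not normalized and is written to 4 significant digits. In each library 17.7% to 23.2% of the values above 0 and under 1000 were not whole (tolerance 1e-06). The authors also deposited RPKM, made per gene length and library size. A score (RPKM centred and scaled within a library) and a signal (RPKM over its root mean square), also deposited by the authors, were not used.

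Samples were grouped by their labels. Estimated counts were rounded, and genes with at least 1 read in all 18 samples were kept. Each of 7 comparisons was fitted on its 3 samples a group with edgeR 4.0.16 in R 4.3.3 (TMM, quasi-likelihood test). Adjustment was by Benjamini-Hochberg over 12731 genes, with calls at an adjusted p under 0.05. The method was tested on simulated counts with the same spread setting for every gene and no GC-linked shift. That test therefore does not cover the GC-linked shifts between these libraries. SE values come from the fold change and F statistic. Floors of 3 reads cover counting error only. For genes this far above the floor, precision is set mainly by the spread between libraries.

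The receptors and the lists of ligands, relays, inhibitors and other receptors were chosen with earlier results of these data known. All 10 receptors are named. From each list, up to 3 genes a direction are named in each comparison with control, by size of change, among called genes without overlap between groups and with at least 50 reads on average in the higher group; Hsph1 and Hspa5 are stress checks. Likeness is Pearson correlation of mean log2 CPM over 6 groups, among tested genes with at least 50 reads on average.

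Alternatives were no filter beyond 1 read in 1 sample, filterByExpr, total counts, DESeq2 1.42.0 (size factors and Wald test), 1 shared spread over the 6 groups, a block for the replicate number, a GC offset (lowess, span 0.3, alone and with the block; it also removes true differences that follow GC), a fold change minimum and leaving out each library. GC and coding sequences came from the longest GENCODE transcript of a symbol on the mm9 build (97.4% of tested genes matched); upstream sequences came from RefSeq (GRCm38.p6). Same-numbered samples of Tu 135 min and control deviated together (correlations of 0.284 to 0.335). In every other comparison at least 1 such correlation was negative, so a pairing by replicate number was not established. Python 3.11.15 with pandas 2.3.3, numpy 2.4.6 and matplotlib 3.10.9 was used.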

Additional observations from a re-analysis of the deposited data

Results flagged for a closer look

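The difference between the Tu 405 min and Tu 135 min effects was itself tested for each receptor, by comparing both groups directly in edgeR. Here 8 receptors were lower at 405 min (22.4% of all genes were) and 0 were higher (21.4% were). On the log2 scale the 405 min level minus the 135 min level was -2.57 for Pdgfra, -2.49 for Pdgfrb, -1.79 for Egfr, -1.52 for Met, -1.05 for Fgfr1, -1.002 for Igf1r, -0.86 for Axl and -0.42 for Fgfr2. Both effects use the same controls, which drop out of this difference. Met lay below all controls at Tu 135 min (97.7 ± 35.3 against 155 ± 15.1 CPM, SD, n = 3), as did 13.6% of all genes. It was not called there (log2 fold change -0.64, adjusted p = 0.273, edgeR). The Met samples also lay below all controls at Tu 45 min (16.0% of all genes did) and HS 135 min (19.0%), without a call. Pdgfra stood at 299 ± 83.0 CPM at Tu 135 min against 318 ± 17.6 CPM in the control (SD, n = 3). The Egfr value includes the change of gene model, and the Fgfr2 value was not called without single libraries, as described above.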

How the results depend on the processing

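Of 637 log2 fold changes of single receptors under alternatives other than leaving out 1 library, 591 kept their direction and side of the threshold, 18 passed only under the alternative, 7 passed only in the analysis reported, and 21 changed sign, all of them without a call on either side. The falls of Pdgfra, Pdgfrb and Met at Tu 405 min kept their calls under every alternative. The number of receptors called at Tu 405 min against control was 4 when the log2 fold change had also to reach 1 in size. The share of all genes passing both limits was not counted. Egfr was among the 4 at -1.02 on a mix of gene models, and stood at -0.72 on the shorter model. For HS 135 min the number of receptors called was 0 with total counts without TMM (7.26% of all genes called) and with the replicate block (0.0%). It was 2 with filterByExpr (8.52%), DESeq2 size factors (7.68%), the DESeq2 Wald test (17.0%) or the GC offset (20.7%). In the shared fit it was 3 (25.5%). It was 1 at Tu 45 min with the DESeq2 Wald test (14.5% of all genes called), the GC offset (15.4%) and the GC offset with the replicate block (4.52%). In HS against Tu at 135 min it was 2 with the DESeq2 Wald test (9.87%) or the shared fit (13.9%) and 1 with the GC offset (11.3%). Leaving out each library in turn gave 0 to 4 receptors at HS 45 min, 0 to 3 at HS 135 min, 0 at both early Tu times and in HS against Tu, 3 to 9 at Tu 405 min against control and 7 to 8 at Tu 405 min against Tu 135 min. The share of all genes called was high where these counts peaked. It was 45.4% without HS 45 replicate 3 (4 receptors at HS 45 min) and 19.4% without HS 135 replicate 1 (3 at HS 135 min). At Tu 405 min it was 62.0% without control replicate 1 (9 receptors) and 31.9% without Tu 405 replicate 2 (3 receptors). The number of all genes called moved by over 1.5 times as well, for example from 941 to 2159 in the DESeq2 Wald test and 0 with the replicate block at HS 135 min, and from 17 to 639 and 0 at Tu 135 min. The causes were not tested.

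For Insr at HS 45 min the log2 fold change was 0.00425 with DESeq2 size factors, 0.00444 in the DESeq2 Wald test, 0.30 with the GC offset and 0.34 with the GC offset and replicate block. In HS 135 min Insr was at 0.14 with the GC offset and 0.18 with the offset and replicate block. At Tu 45 min Insr was at -0.0130 with DESeq2 size factors and in the Wald test, -0.00424 in the shared fit and -0.00738 with the GC offset. At Tu 405 min Insr was at 0.038 with the GC offset and replicate block, and in HS against Tu at 0.020 with the offset and 0.027 with the offset and replicate block. With total counts, Fgfr2 was at -0.00365 at HS 45 min and 0.057 at Tu 45 min, and Igf1r at 0.051 at Tu 45 min. With the GC offset at Tu 135 min Pdgfra was at 0.00814 and Ddr2 at 0.034, or 0.040 for Ddr2 with the replicate block too. Egfr on the shorter gene model, an alternative chosen after the data were seen, was at -0.021 at Tu 135 min and 0.23 in HS against Tu, each with a single Tu 135 library. Leave-one-out ranges that crossed 0 were, for Insr, -0.18 to 0.19 (HS 45), -0.22 to 0.16 (HS 135), -0.098 to 0.21 (Tu 45), -0.15 to 0.22 (Tu 135), -0.21 to 0.13 (Tu 405), -0.26 to 0.086 (HS against Tu) and -0.29 to 0.036 (Tu 405 against Tu 135). They were -0.14 to 0.48, -0.041 to 0.67 and -0.15 to 0.43 for Pdgfra, Egfr and Ddr2 at HS 135 min, and -0.24 to 0.17 for Igf1r at Tu 45 min. At Tu 135 min they were -0.26 to 0.15 for Pdgfra and -0.29 to 0.13 for Ddr2, and in HS against Tu -0.092 to 0.55 for Pdgfra, -0.053 to 0.54 for Ddr2 and -0.67 to 0.12 for Met.

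Total counts in place of TMM moved the median of all genes from -0.03 to -0.19 at HS 45 min, from -0.02 to -0.19 at HS 135 min, from -0.0037 to 0.10 at Tu 45 min, from -0.01 to -0.11 at Tu 405 min and from -0.03 to -0.18 in HS against Tu. At Tu 405 min the split of all calls was then 2411 higher and 3414 lower in place of 2965 and 2995, and in HS against Tu 209 and 275 in place of 166 and 104. For HS 135 min it was 498 and 426 in place of 605 and 336, and at Tu 45 min 878 and 180 in place of 510 and 276. Replicates with the same number deviated together at Tu 135 min against control (correlations of 0.335, 0.314 and 0.284). In the other comparisons at least 1 same-number correlation was negative, and all 3 were in Tu 405 against Tu 135 min (-0.480, -0.450 and -0.171). The replicate block changed the receptor calls of Igf1r at HS 135 min and Fgfr2 at Tu 405 against 135 min and no other. Of the pathway genes named, the block removed the calls of all 9 at HS 135 min (edgeR adjusted p of 0.143 to 0.176), all 5 at Tu 45 min, Igf2 and Dusp6 included (0.0501 to 0.182), Cblb at Tu 135 min (0.0694), and Hgf (0.0631) and Hgs (0.05002) among 18 at Tu 405 min.

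Egfr counts mix a pair of gene models, which RPKM adjusts for length and CPM does not.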
